A study of Homo sapiens and Mus musculus with 20 samples.

Results

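The zinc finger genes of human chromosome 19 were examined in peak lists of Satb1 ChIP-seq and of ATAC-seq from MCF10A, a breast epithelial cell line that has no native Satb1. A gene was a member if it was protein-coding, lay on chromosome 19 of GRCh37 (hg19) and had a symbol made of ZNF, digits and at most 1 further letter. This gave 246 of the 1480 protein-coding genes of the chromosome and 246 of the 508 ZNF genes of the genome. Each gene body was extended by 5 kb on both sides and overlapping regions were merged, which left 163 regions with 9.40 Mb of sequence, or 16.8% of the sequenced chromosome. The rest of the chromosome, 46.4 Mb, was the reference.

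Satb1 is a genome organizer of thymocytes that binds A/T-rich DNA as a multimer. It carries an N-terminal multimerization domain, the DNA-binding CUT1 and CUT2 domains and a homeodomain. The proteins of the ZNF genes carry arrays of C2H2 zinc fingers, in which each finger reads a few bases of DNA, and in many of them the fingers follow a KRAB domain that recruits the corepressor TRIM28. These genes arose by tandem duplication and stand in clusters of near relatives, many of them on chromosome 19, which is otherwise rich in genes and in G and C. The last exon of such a gene usually encodes the whole finger array.

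The 5 ChIP-seq lists came from MCF10A lines with a stably integrated lentiviral transgene under a cumate-switch promoter. The transgene encoded full-length Satb1, ∆HD (Satb1 without its homeodomain) or N-C1 (the N-terminal part through CUT1), each fused to eGFP at the C terminus, and cells were sorted for the same fluorescence. Chromatin was pulled down with a GFP antibody. The full-length line was used untreated and after 2 h of camptothecin, a topoisomerase I inhibitor, or of ICRF-193, a topoisomerase II inhibitor. The 2 ATAC-seq lists, of DNA open to the Tn5 transposase, came from native MCF10A and from MCF10A expressing Satb1. Satb1 was thus expressed from outside in every ChIP-seq line, and not in its native cell type. Each condition had 1 deposited list, so there was no replicate error and no test between groups. Intervals below are exact 95% intervals for counting error only, and they treat neighbouring peaks and neighbouring genes as independent. The depth of each list was not given, so peak numbers were compared inside a list and not between lists.

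The label of the line was checked against marker genes. An ATAC-seq peak lay at the promoter of 9 of 10 basal epithelial marker genes in both lists, with TP63 as the exception, while 69.1% of all 20176 protein-coding promoters of the genome were open in native cells and 73.7% in cells with Satb1. Among 10 markers of blood, liver, muscle and neurons, the promoter of 1 (SYP) was open in native cells, and the promoters of 4 (APOA1, MYOD1, SPI1 and SYP) were open in cells expressing Satb1.

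The sequences at the Satb1 summits show the DNA where the signal of a peak was highest, and not which bases the protein contacted. The following windows of 120 bp, centred on the summit and written on the plus strand of GRCh37, are from 6 Satb1 peaks in or beside members. The peak in ZNF44 (chr19:12375411-12375530) was the strongest, that in ZNF730 (chr19:23303301-23303420) was the third strongest, that in ZNF229 (chr19:44934821-44934940) held the most consensus matches, and that in ZNF30 (chr19:35417383-35417502) was at a promoter. The windows of ZNF45 (chr19:44412054-44412173) and ZNF835 (chr19:57181274-57181393) held no match. Capitals mark exact matches to the consensus that the study writes as YTAWTAR. It stands for 8 heptamers: CTAATAA and CTATTAA, the same with T as the first base, and each of these with G as the last base. The set of 8 is its own reverse complement, so both strands were searched at once, and overlapping matches were each counted.
ZNF44: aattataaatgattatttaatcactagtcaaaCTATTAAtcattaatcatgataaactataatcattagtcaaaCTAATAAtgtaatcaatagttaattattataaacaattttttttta
ZNF730: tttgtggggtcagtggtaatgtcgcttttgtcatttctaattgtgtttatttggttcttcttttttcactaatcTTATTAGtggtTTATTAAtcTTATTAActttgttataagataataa
ZNF229: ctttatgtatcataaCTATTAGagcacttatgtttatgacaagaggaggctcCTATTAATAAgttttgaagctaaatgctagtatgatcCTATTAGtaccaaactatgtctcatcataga
ZNF30: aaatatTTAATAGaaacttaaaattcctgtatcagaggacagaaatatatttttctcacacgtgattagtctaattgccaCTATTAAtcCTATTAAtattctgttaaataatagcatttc
ZNF45: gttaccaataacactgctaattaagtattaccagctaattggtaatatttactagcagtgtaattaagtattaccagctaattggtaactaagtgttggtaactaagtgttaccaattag
ZNF835: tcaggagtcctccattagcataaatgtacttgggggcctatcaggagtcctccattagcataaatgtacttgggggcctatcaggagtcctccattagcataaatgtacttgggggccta

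ZNF44, ZNF730 and ZNF30 showed several heptamers inside A/T-rich sequence. In the 400 bp at the summit, ZNF44 had 2 matches, ZNF730 had 4, ZNF229 had 7 and ZNF30 had 3. The windows of ZNF45 and ZNF835 held repeats. A run of 28 bp occurred again 43 bp further on in ZNF45, and the ZNF835 window consisted of a unit of 40 bp repeated end to end.

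The heptamers were common in the Satb1 peaks of the ZNF regions. At least 1 match lay within the 400 bp at 27 of 29 summits, 93.1% (77.2 to 99.2), beside 94.2% of 121 summits in the rest of the chromosome and 94% over all its Satb1 peaks. Of adjoining tiles of 400 bp, 20.3% held a match in the ZNF regions and 12.9% in the rest. The other lists gave 54 of 60 summits for ∆HD (chromosome 89.4%), 68 of 73 for N-C1 (93.5%), 22 of 22 after camptothecin (95.7%) and 26 of 27 after ICRF-193 (93.6%). None of the 5 shares stood apart from that of the chromosome. The central 200 bp of the 29 Satb1 peaks held 69.5% A/T (SD 7.0 across peaks), and flanks lying 1000 to 2000 bp away held 56.9% (SD 5.85). The peak exceeded its own flanks in 28 of 29 cases. Satb1 peaks in the rest were alike, with 69.8% A/T against 55.9% in the flanks, and 113 of 121 exceeded their flanks.

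The ZNF regions were A/T-rich for this chromosome. They held 56.5% A/T against 50.7% in the rest, and 616 heptamer matches per Mb against 380. The member genes had a median length of 25.8 kb, against 13.9 kb for the other 1234 protein-coding genes, and ran from 3.12 kb (ZNF524) to 489 kb (ZNF536). There were 83 members on the short arm and 163 on the long arm, and 81 other protein-coding genes overlapped the member regions.

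Full-length Satb1 had 29 peaks in the ZNF regions, of 150 on the chromosome and 22877 in the genome. This was 3.09 peaks per Mb (2.07 to 4.43) against 2.61 (2.16 to 3.12) in the rest, a ratio of 1.18 (0.761 to 1.79). The ratio could not be told from 1 at this number of peaks. It was 1.13 (0.840 to 1.50) for ∆HD with 60 peaks, 1.14 (0.685 to 1.83) after camptothecin with 22 peaks, and 0.926 (0.590 to 1.40) after ICRF-193 with 27 peaks. N-C1 was the list with an interval above 1. It had 73 peaks, 7.77 per Mb (6.09 to 9.77) against 5.41 in the rest, a ratio of 1.44 (1.09 to 1.87). With peaks of at least 5-fold enrichment alone, the N-C1 interval reached from 0.937 to 1.79.

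**Figure D1:**
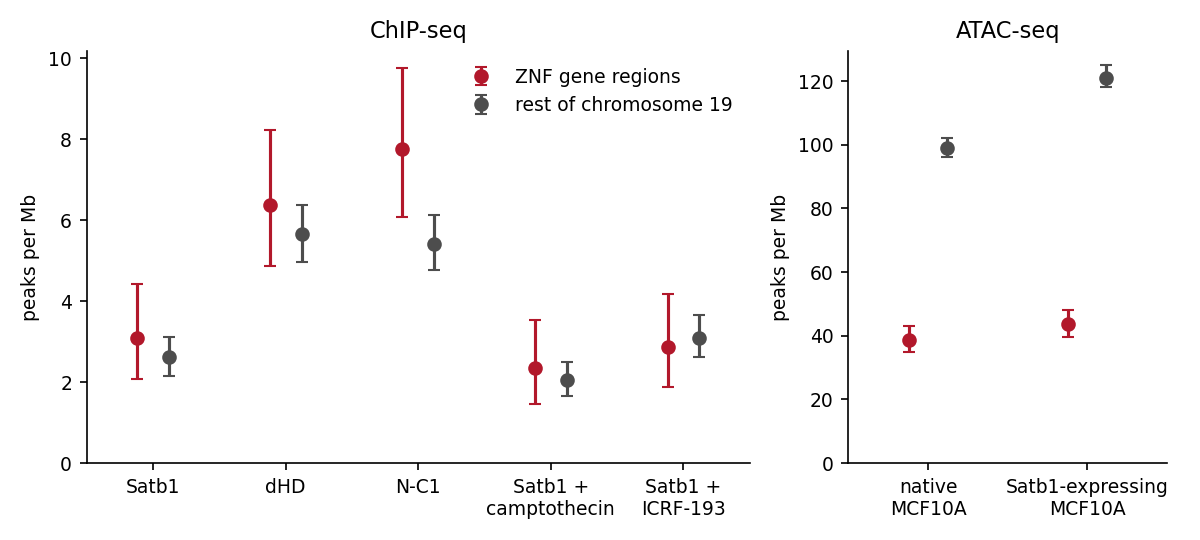
Peaks per Mb (y axis, from 0, with a separate scale for each panel) in the ZNF gene regions and in the rest of chromosome 19, for the 5 ChIP-seq lists (left, with ∆HD as dHD) and the 2 ATAC-seq lists (right). Points are rates and bars exact 95% Poisson intervals. The ChIP-seq intervals of both parts of the chromosome overlap, in N-C1 by a small margin (6.09 to 9.77 against 4.76 to 6.12), and the ATAC-seq rates of the ZNF regions, 38.8 and 43.6, lie far below 99.0 and 121.

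The picture by gene differed from the picture by length. A Satb1 peak lay in or within 5 kb of 30 of the 246 members, 12.2% (8.38 to 16.9), against 5.27% (4.09 to 6.66) of the other genes and 6.42% of all 1480. For ∆HD the count was 51 members, 20.7% (15.8 to 26.3), against 7.70% of the others and 9.86% of all. For N-C1 it was 60 members, 24.4% (19.2 to 30.3), against 8.67% and 11.3%. After camptothecin it was 23 members, 9.35% (6.02 to 13.7), against 3.48% and 4.46%, and after ICRF-193 it was 26 members, 10.6% (7.02 to 15.1), against 5.35% and 6.22%. In each of the 5 lists the interval of the members lay above that of the other genes. After ICRF-193 the margin was small, with bounds of 7.02 and 6.75. These intervals treat genes as independent, but some members shared a peak, such as ZNF432 with ZNF841 and ZNF28 with ZNF468. The small ICRF-193 margin therefore does not establish a difference.

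Gene length moved with these shares. Of the members of 40 kb or more, 13 of 52 had a Satb1 peak, 25% (14.0 to 38.9), against 11.7% (7.55 to 17.0) of other genes of that length. Of the members under 20 kb, 7 of 94 had one, 7.45% (3.05 to 14.7), against 3.75% (2.53 to 5.34). From 20 to 40 kb the shares were 10% (4.90 to 17.6) and 4.92% (2.65 to 8.27). The members had the higher share in all 3 length classes, but the Satb1 intervals overlapped in each. Under 20 kb the members were also longer, with a median of 13.4 kb against 8.81 kb. For ∆HD the intervals overlapped from 20 to 40 kb and at 40 kb or more, and not under 20 kb, where the shares were 13.8% (7.57 to 22.5) and 4.14% (2.85 to 5.79). For N-C1 they did not overlap in any class: the shares were 14.9% (8.39 to 23.7) against 5.30% (3.83 to 7.13) under 20 kb, 22% (14.3 to 31.4) against 9.47% (6.22 to 13.7) from 20 to 40 kb, and 46.2% (32.2 to 60.5) against 20.8% (15.4 to 27.2) at 40 kb or more. Against the regions of the other protein-coding genes, also with 5 kb on each side, the ratio of peaks per Mb was 1.63 (1.01 to 2.59) for Satb1, 1.94 (1.38 to 2.69) for ∆HD and 2.17 (1.59 to 2.94) for N-C1. After camptothecin and ICRF-193 it was 1.71 (0.972 to 2.93) and 1.40 (0.856 to 2.23).

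Set against base composition and motif number, the rates of the ZNF regions were the lower as point values. In bins of 10 kb, Satb1 peaks were compared between bins that lay at least 50% in a ZNF region and the other bins, with the latter weighted to the same A/T classes. The ZNF bins had 3.27 Satb1 peaks per Mb (2.22 to 4.65) and the other bins 4.67. The values were 6.97 (5.39 to 8.87) and 10.4 for ∆HD, 8.55 (6.79 to 10.6) and 10.6 for N-C1, 2.85 (1.88 to 4.15) and 3.58 after camptothecin, and 3.59 (2.49 to 5.02) and 5.71 after ICRF-193. All 5 lists were lower in the ZNF bins. The value of the other bins lay above the interval of the ZNF bins for Satb1, ∆HD and ICRF-193, at its upper bound for N-C1, and within it for camptothecin. The weighted value of the other bins has counting error too, but no interval was computed for it. For Satb1 it passed the upper bound by little, 4.67 against 4.65. In the classes of 55 to 60% and 60 to 65% A/T, the Satb1 intervals of ZNF bins and other bins overlapped. Per 1000 heptamer matches the ratio of the ZNF regions to the rest was 0.729 (0.468 to 1.10) for Satb1, 0.696 (0.517 to 0.925) for ∆HD, 0.884 (0.672 to 1.15) for N-C1, 0.704 (0.422 to 1.13) after camptothecin and 0.570 (0.363 to 0.864) after ICRF-193. The intervals for Satb1, N-C1 and camptothecin included 1.

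**Figure D2:**
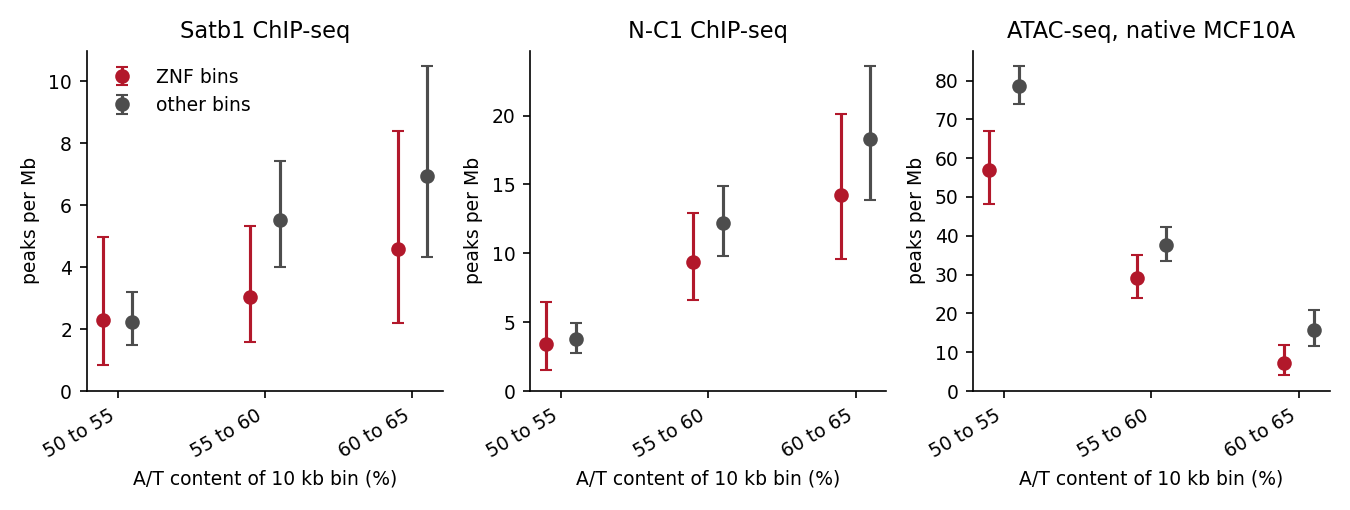
Peaks per Mb (y axis, from 0, with a separate scale for each panel) in 10 kb bins of 3 A/T classes (x axis, %), for bins in ZNF regions and other bins, with exact 95% Poisson intervals as bars. The classes shown hold 876 of the 947 ZNF bins. Satb1 and N-C1 rates are higher in the more A/T-rich classes and ATAC-seq rates lower, and from 55 to 65% A/T the ZNF bins lie below the other bins in all 3 panels. At 50 to 55% A/T the Satb1 rates are near each other, 2.28 and 2.22. In the classes not shown, the Satb1 rate of ZNF bins is lower under 45% A/T, with 0 peaks. It is higher at 45 to 50% (2.33 against 1.09, from 1 peak) and over 65% (33.3 against 15.4, from 2 peaks).

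Single heptamers were rarely under a peak in either part of the chromosome. Of the 5793 matches in ZNF regions, 76 lay in a Satb1 peak, 1.31% (1.04 to 1.64), against 1.88% (1.69 to 2.10) of 17615 matches in the rest. The 76 matches fell in at most 29 peaks, and matches in the same peak are not independent. The intervals on matches given here are therefore too narrow. Counted by peak, the ratio per 1000 matches was 0.729 (0.468 to 1.10), which includes 1. Matches with no neighbour within 200 bp were in a peak in 3 of 3952 cases in the ZNF regions. Where a window held 4 or more matches, 33 of 78 were in a peak, 42.3% (31.2 to 54.0), against 52.9% (46.6 to 59.2) of 257 in the rest. The share of matches in a Satb1 peak was higher with more neighbours in both parts, and the ZNF value was the lower in each of the 4 classes of neighbours.

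The 29 Satb1 peaks had fold enrichments, the ratio of the pileup to its local background, from 3.73 to 24.0 with a median of 6.78. The median of the rest of the chromosome was 7.66 and its maximum 47.2. By their summits, 22 of the 29 lay in introns, 75.9% (56.5 to 89.7), 5 in the downstream flank and 2 in promoters. No summit lay in a coding or non-coding exon, with an upper bound of 11.9% for each. The shares of the ZNF regions made up of intron, exon, flank and promoter were not measured. These counts therefore do not show a preference for or against any of them. The longest coding exon of a member had a median of 1546 bp and held a median of 82.2% of the coding length, and a Satb1 peak touched this exon in 2 of the 246 members, 0.813% (0.0986 to 2.91), beside 0.135% of all 1480 genes. The longest coding exons of the other genes, with a median of 322 bp, were shorter, and 0 of 1234 was touched (0 to 0.298%).

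The peak in an intron of ZNF44 at chr19:12375243-12375718 had the largest enrichment. Its values were 24.0 with full-length Satb1, 15.2 with ∆HD, 43.3 with N-C1, 17.5 after camptothecin and 21.6 after ICRF-193. It ranked 8 among the 150 Satb1 peaks of the chromosome, and 4.74% of the peaks of the genome were at or above it. It was also the strongest member site in 4 of the 5 lists, with ∆HD as the exception. No ATAC-seq peak overlapped it.

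ZNF846 was the single member with 2 Satb1 peaks. The peak at chr19:9901970-9902296, 1.74 kb inside the gene from its start, had 12.5-fold enrichment with Satb1, 12.9 with ∆HD, 18.4 with N-C1, 7.89 after camptothecin and 11.0 after ICRF-193. It overlapped an ATAC-seq peak of 11.8-fold in native cells and of 6.52-fold in cells with Satb1. The other peak, 20.4 kb from the start, was weak, at 4.99 with Satb1, 3.86 with ∆HD, 6.29 with N-C1 and 4.21 after ICRF-193, and had no peak after camptothecin.

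ZNF730 lies in the short-arm cluster that ends beside the centromere. Its Satb1 peak at chr19:23303197-23303585, in an intron, had 11.6-fold enrichment, with 11.2 for ∆HD, 22.7 for N-C1, 9.90 after camptothecin and 14.7 after ICRF-193. A further intronic site was listed for ∆HD at 5.18 and N-C1 at 4.65 and in no other list. On the long arm, the peak at chr19:53338596-53338966 in an intron of ZNF28, which also lay within 5 kb of ZNF468, had 11.4, 14.6, 22.6, 8.71 and 11.4 in the same order of lists. The peak at chr19:52571137-52571465 in an intron of ZNF432, also inside the overlapping gene body of ZNF841, had 10.4 with Satb1, 8.24 with N-C1, 8.37 after camptothecin and 13.1 after ICRF-193, and no ∆HD peak.

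ZNF229, ZNF98 and ZNF540 had sites of the truncated constructs at or above those of full-length Satb1 in value or number. The lists of the truncated constructs were longer over the whole genome, with 50537 peaks for ∆HD and 62856 for N-C1 against 22877. Their depth is unknown, so the values below are a description and not a trait of these genes. The ZNF229 site at chr19:44934717-44935097, with 7 heptamers, had 9.99 with Satb1, 16.6 with ∆HD, 16.6 with N-C1, 6.49 after camptothecin and 11.9 after ICRF-193, and the ∆HD value was the largest of that list in the ZNF regions. ZNF98 had 1 Satb1 peak, at 5.96, but 3 peaks each for ∆HD (4.80 to 8.96) and N-C1 (6.22 to 7.78), all in introns. ZNF540 had no Satb1 peak, 2 ∆HD peaks of 5.56 and 6.13 and 3 N-C1 peaks from 3.96 to 5.87. ZNF506 had a site in its downstream flank in all 5 lists (7.31 with Satb1, 15.1 with N-C1) and a site in an intron in every list but the untreated full-length one, from 5.37 to 6.51.

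Promoter sites were few. Defined as 1000 bp upstream to 100 bp downstream of the gene start, a promoter with a Satb1 peak was found in 2 members, 0.813% (0.0986 to 2.91), beside 0.608% of all genes of the chromosome. At ZNF737 the summit lay 0.678 kb upstream of the start, and the fold enrichment was 10.9 with Satb1, 4.43 with ∆HD, 13.9 with N-C1, 7.72 after camptothecin and 9.29 after ICRF-193. The Satb1 peak overlapped no ATAC-seq peak. The ZNF737 promoter did hold an ATAC-seq peak of 3.64-fold in native cells, which the ∆HD peak overlapped, and none in cells with Satb1. At ZNF30 the summit lay 0.364 kb upstream, with values of 8.72, 12.3, 15.0, 9.85 and 14.3. This site lay in an ATAC-seq peak of 19.2-fold in native cells and of 12.7-fold with Satb1.

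**Figure D3:**
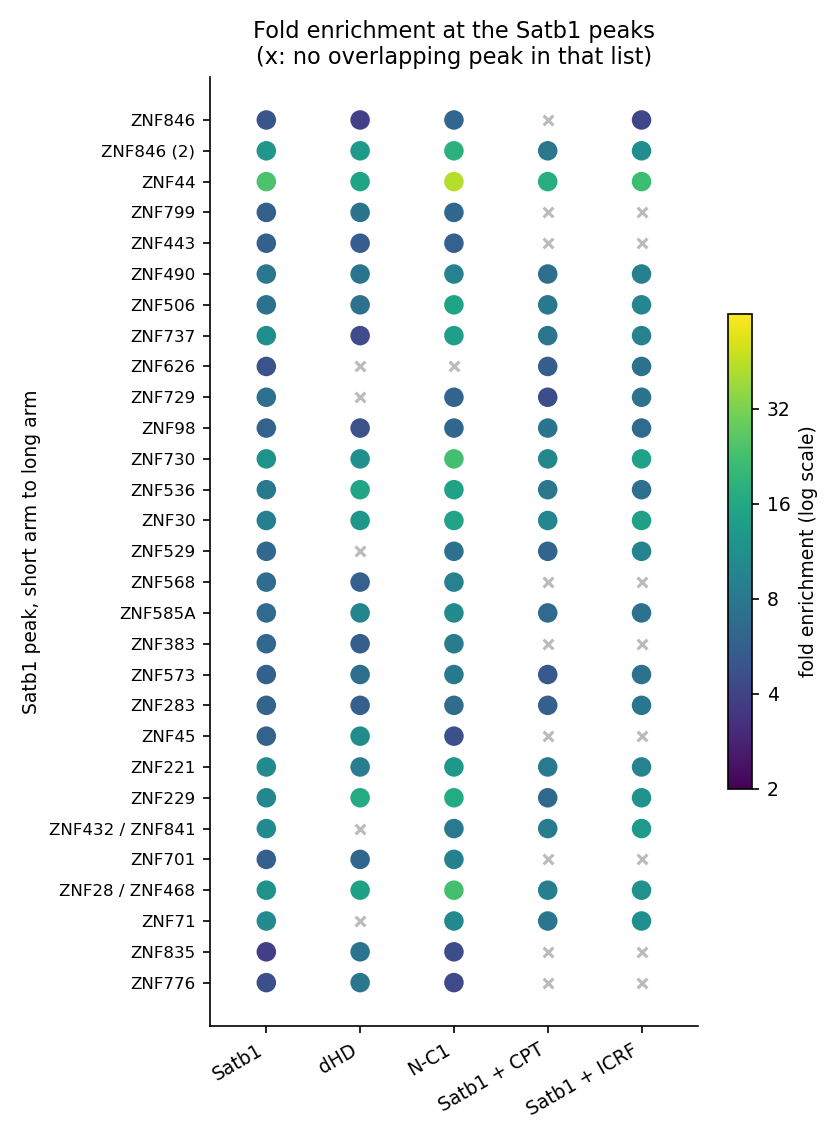
Fold enrichment (colour, log scale) at the 29 Satb1 peaks of the ZNF regions, in rows from the end of the short arm to the end of the long arm, in the 5 ChIP-seq lists (columns; dHD is ∆HD, CPT is camptothecin and ICRF is ICRF-193). A cross marks a list with no overlapping peak. ZNF44 is the brightest row, and the 8 rows with a cross in both drug columns have Satb1 values of 6.78 or less.

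All ChIP-seq lists of the line were called against input DNA and the drug lists used the full-length line, so overlaps between lists are a description. Of the 29 Satb1 peaks, 24 overlapped a ∆HD peak, 82.8% (64.2 to 94.2), beside 86% over the chromosome. This was 40% of the 60 ∆HD peaks, beside 39.8% over the chromosome. With N-C1, 28 overlapped, 96.6% (82.2 to 99.9), beside 92%, which was 38.4% of the 73 N-C1 peaks, beside 42.3%. The 1 Satb1 peak absent from both truncated constructs was in an intron of ZNF626, a gene named after its values were seen. It had 6 heptamers, 83% A/T and a fold enrichment of 4.86, with 5.55 after camptothecin and 7.33 after ICRF-193.

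When the 5 lists were merged, the ZNF regions held 87 sites. There were 15 in all 5 lists, 17.2% (9.98 to 26.8) against 20.3% (16.3 to 24.9) of 354 sites in the rest. Sites found only with ∆HD, N-C1 or both numbered 52, 59.8% (48.7 to 70.1) against 54.0% (48.6 to 59.2). Of these, 21 were in N-C1 alone, 19 in both constructs and 12 in ∆HD alone. In the rest, 56 of the 354 sites were in N-C1 alone and 75 in ∆HD alone, the reverse order. No site was in the untreated Satb1 list alone or in the camptothecin list alone, in either part. In the ICRF-193 list alone there was 1, against 13 of 354 in the rest. No interval was computed for these counts of sites in a single list. The shares of 17.2% and 59.8% did not stand apart from those of the rest of the chromosome. By gene, 175 of the 246 members, 71.1% (65 to 76.7), had no peak in any ChIP-seq list, beside 89.2% (87.4 to 90.9) of the other genes and 86.2% of all. There were 18 members, 7.32% (4.39 to 11.3), with a peak in all 5, beside 2.67% (1.85 to 3.74) of the others and 3.45% of all.

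Among the sites of the truncated constructs were some in non-coding exons, a class in which no full-length summit fell. There were 5 such summits of 60 for ∆HD, 8.33% (2.76 to 18.4), and 8 of 73 for N-C1, 11.0% (4.85 to 20.5). Their intervals overlap that of full-length Satb1, and the share of non-coding exon in the ZNF regions was not measured. At ZNF274, whose protein binds the 3′ ends of other zinc finger genes, 1 such N-C1 site had 4.78-fold enrichment and no peak in the other lists. ZNF91, a repressor of SVA retrotransposons, had a ∆HD value of 7.45 and an N-C1 value of 4.83 and no peak in the 3 full-length lists. Both genes were named after their values were seen.

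The drug lists contained most of the stronger Satb1 sites. Of the 29 peaks, 20 overlapped a camptothecin peak, 69.0% (49.2 to 84.7), beside 70% over the chromosome, and 21 an ICRF-193 peak, 72.4% (52.8 to 87.3), beside 82%. In the other direction, 90.9% of the 22 camptothecin peaks and 77.8% of the 27 ICRF-193 peaks overlapped a Satb1 peak, beside 89.7% and 71.9% over the chromosome. The 20 peaks in both drug lists had a median Satb1 enrichment of 8.44, from 4.86 to 24.0, and medians of 7.69 after camptothecin and 9.38 after ICRF-193. The 8 in neither drug list ran from 3.73 to 6.78 with a median of 5.69. The share in neither list was 27.6% (12.7 to 47.2) in the ZNF regions and 14.9% (9.06 to 22.5) in the rest, with overlapping intervals. All 22 camptothecin peaks overlapped an ICRF-193 peak, beside 98.3% over the chromosome.

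Of the 8 peaks in neither drug list, 4 are named here, after their values were seen, because their sequence holds repeats or has copies. The windows at ZNF799 and ZNF443 were 97.8% identical copies of each other, and both were listed for Satb1 (5.70 and 5.68), ∆HD (7.46 and 5.50) and N-C1 (6.25 and 5.81). Whether reads from these copies were assigned to the right place was not tested. The repeats at ZNF45, where no copy of the window was found elsewhere, had 5.96 with Satb1, 10.7 with ∆HD and 4.65 with N-C1. Those at ZNF835 had 3.73, 7.46 and 4.47, and this window had further near-identical copies beside it. The ZNF28 window also had copies elsewhere in the genome, the best at 95.7% identity on chromosome 10. In all, 4 of the 29 windows of 400 bp had a copy of at least 95% identity over at least 300 bp.

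The members stood in 20 clusters when neighbours under 500 kb apart were joined, and 222 of them stood in 8 clusters of 10 or more. The cluster from ZNF101 to ZNF254, on the short arm beside the centromere, was the widest with 2.12 Mb of member regions and 37 genes. It had the highest A/T content of the 8, 59.6%, and 806 heptamers per Mb, and 6 of its genes had a Satb1 peak. The cluster from ZNF264 to ZNF446 at the end of the long arm had 43 genes in 1.02 Mb, 53.4% A/T and 448 heptamers per Mb, and 1 gene with a Satb1 peak, 0.980 peaks per Mb. With N-C1, 14 genes of the first cluster and 3 of the second had a peak. The Satb1 intervals of all 8 clusters overlapped.

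**Figure D4:**
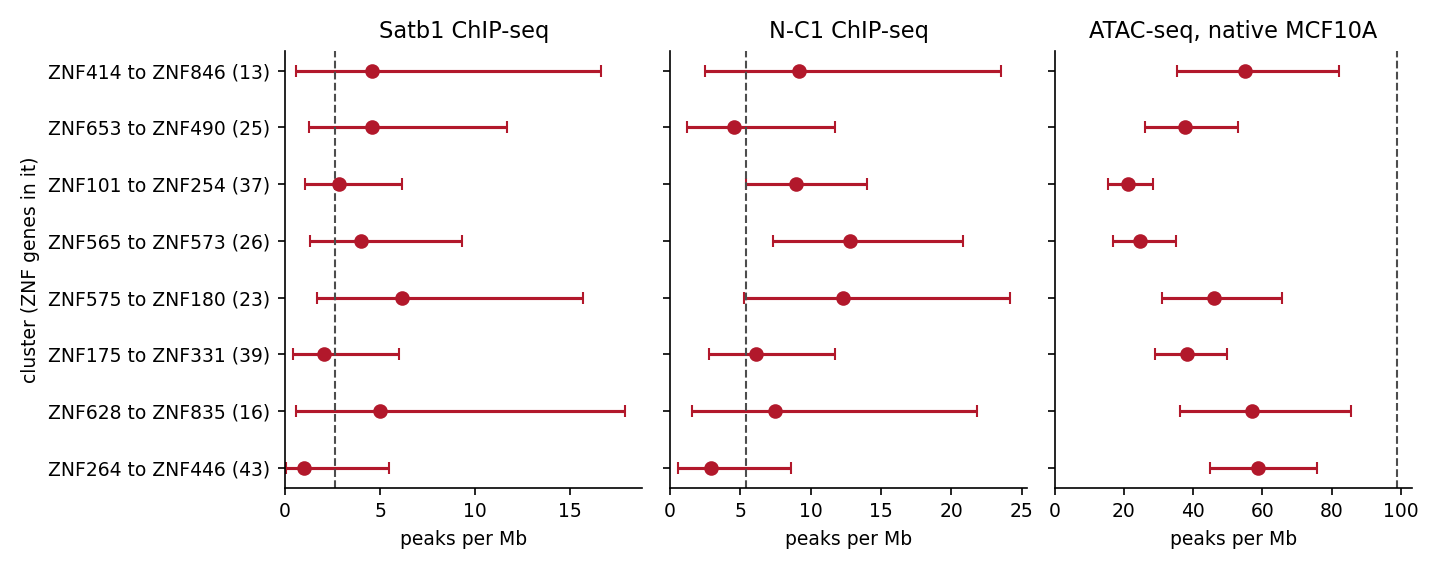
Peaks per Mb (x axis, with a separate scale for each panel) in the 8 clusters of 10 or more ZNF genes, in rows along the chromosome with the number of members in brackets, for Satb1, N-C1 and ATAC-seq in native cells. Points are rates, bars exact 95% Poisson intervals and dashed lines the rate in the rest of the chromosome (2.61, 5.41 and 99.0). All 8 ATAC-seq intervals lie left of the line, while the Satb1 intervals cross it.

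Some of the longest members had no ChIP-seq peak at all. ZNF208 (78.0 kb, 61.2% A/T, 81 heptamers) had no peak in any of the 7 lists, ATAC-seq included. ZNF235 (76.3 kb, 56 heptamers) and ZNF565 (64.0 kb, 38 heptamers) had no ChIP-seq peak but had ATAC-seq peaks of up to 21.2-fold and 36.5-fold in native cells. The longest member, ZNF536, known as a regulator of neuronal differentiation, had 1 Satb1 peak of 8.15, with 15.4 for ∆HD, 14.7 for N-C1, 7.91 after camptothecin and 7.14 after ICRF-193.

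ATAC-seq peaks were sparse in the ZNF regions. Native cells had 365 peaks there of 4962 on the chromosome, 38.8 per Mb (35.0 to 43.0) against 99.0, a ratio of 0.392 (0.352 to 0.436). Cells with Satb1 had 410 of 6044, 43.6 per Mb (39.5 to 48.1) against 121, a ratio of 0.359 (0.324 to 0.397). The peaks covered 4.19% of the ZNF regions and 12.2% of the rest in native cells, and 5.53% and 21.2% in cells with Satb1. In bins of the same A/T content the gap was smaller, with 38.3 per Mb (34.5 to 42.5) against 51.2 in native cells and 42.4 (38.4 to 46.8) against 63.0 with Satb1.

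At the gene starts the difference was smaller and depended on the list and the window. In native cells, 173 of the 246 member promoters had an ATAC-seq peak, 70.3% (64.2 to 76.0), against 69.7% (67.0 to 72.2) of the others and 69.8% of all. In cells with Satb1, it was 166, 67.5% (61.2 to 73.3), against 77.9% (75.5 to 80.2) and 76.1%. Within 2000 bp on each side of the start, the shares were 73.2% (67.2 to 78.6) against 81.0% (78.7 to 83.1) in native cells and 72.4% (66.3 to 77.8) against 86.5% (84.5 to 88.4) with Satb1. The members thus lay below the other genes in all but the narrow window of native cells. The promoter was open in both lists for 164 members, in native cells only for 9, with Satb1 only for 2 and in neither for 71. The same split was not computed for the other genes, and it compares lists of unknown depth. It is therefore a description and not a trait of the members. Strength and width were compared over promoters with a peak alone, 173 and 860 in native cells and 166 and 961 with Satb1. There the members had a higher median fold enrichment, 15.6 against 12.6 in native cells and 10.8 against 8.24 with Satb1. Their peaks were also narrower, with medians of 1256 bp against 2066 bp and 1420 bp against 3053 bp. A link between fold enrichment and peak width was not tested. Of the ATAC-seq peaks in ZNF regions, 49.6% lay at a promoter in native cells, against 14.7% in the rest. Away from promoters there were 19.6 per Mb (16.9 to 22.6) against 84.4.

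**Figure D5:**
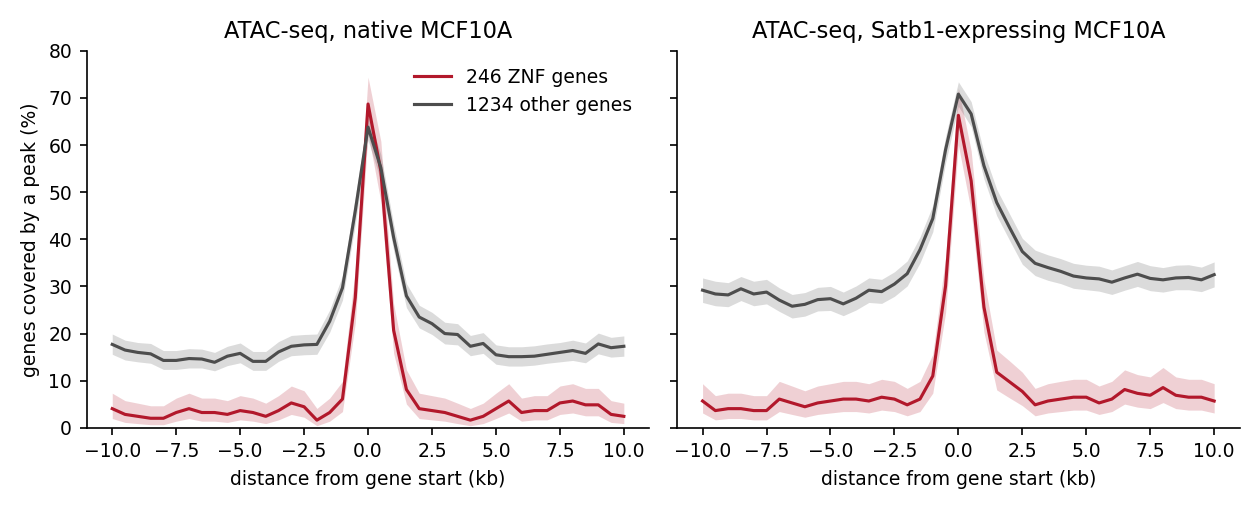
Share of genes (y axis, %) with an ATAC-seq peak over the position at each distance from the gene start (x axis, kb, positive into the gene), for 246 members and 1234 other genes of chromosome 19, in native cells (left) and cells with Satb1 (right). Bands are exact 95% binomial intervals. At the start, 68.7% of members and 63.8% of other genes are covered in native cells, and at 2 kb into the gene 4.07% and 23.5%.

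The fall from the start was steep. In native cells a peak covered 68.7% of member starts (62.5 to 74.4) and 63.8% of the others (61.0 to 66.5). At 1 kb upstream it was 6.10% (3.45 to 9.86) against 29.7% (27.1 to 32.3), and at 10 kb into the gene 2.44% (0.900 to 5.23) against 17.3% (15.2 to 19.5). With Satb1 the values at 10 kb were 5.69% (3.15 to 9.36) and 32.5% (29.9 to 35.2). ZNF507, with 9 ATAC-seq peaks in native cells and 8 with Satb1, and ZNF787, with 6 and 11, had the most peaks in their lists and no ChIP-seq peak. An ATAC-seq peak lay within 5 kb of 209 members in native cells, 85.0% against 92.7% of all genes, and of 208 with Satb1, 84.6% against 93.6%.

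Few Satb1 peaks overlapped an ATAC-seq peak, but ATAC-seq peaks also covered little of the ZNF regions. The covered share was 4.19% in native cells and 5.53% in cells with Satb1, so the overlaps below do not show avoidance of open DNA. Of the 29 Satb1 peaks, 2 overlapped an ATAC-seq peak in native cells, 6.90% (0.846 to 22.8), beside 5.79% in the rest and 6% over the chromosome. The same 2, at ZNF846 and ZNF30, overlapped one in cells with Satb1, beside 6.61% in the rest and 6.67% over the chromosome. For ∆HD it was 3 of 60 in native cells and 2 with Satb1, against 4.66% and 5.90% over the chromosome, and for N-C1 it was 3 of 73 and 2, against 3.70% and 4.01%. Among the additional N-C1 sites, that at the promoter of ZNF66, named after its values were seen, overlapped an ATAC-seq peak of 11.2-fold in native cells, and with Satb1 the promoter had an ATAC-seq peak of 4.54-fold that did not reach the site.

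Other gene groups of the chromosome were described by the same counts. Of 17 further C2H2 genes (ZFP, ZSCAN, ZBTB, ZIK1, ZIM and PEG3 symbols), 4 had a Satb1 peak, 23.5% (6.81 to 49.9). It was 1 of 15 kallikrein genes, 3 of 22 PSG and CEACAM genes, 0 of 11 SIGLEC genes, 4 of 17 LILR and KIR genes, 2 of 12 CYP2 and CYP4F genes and 4 of 20 olfactory receptor genes. By share of genes, the interval of the members lay within that of each of these groups. By length, the olfactory receptor genes, which encode odorant receptors, had 17.5 Satb1 peaks per Mb (6.43 to 38.2) from 6 peaks in 0.342 Mb, above the 3.09 (2.07 to 4.43) of the members. They also had 29.2 (14.0 to 53.7) for ∆HD, 29.2 (14.0 to 53.7) for N-C1 and 14.6 (4.74 to 34.1) after ICRF-193, with intervals above those of the members, and 11.7 (3.18 to 29.9) after camptothecin, which overlapped. Of the 262 ZNF genes of other chromosomes, 49 had a Satb1 peak, 18.7%, at 5.67 peaks per Mb, against 12.2% and 3.09 per Mb for the members. The share and rate over all genes of those chromosomes were not computed. This gap therefore cannot be told apart from a difference between chromosome 19 as a whole and the other chromosomes.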

How the data were processed

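MCF10A chromatin was measured by ChIP-seq (5 lists) and ATAC-seq (2 lists) in 7 of the 20 samples. The mouse VL3 lists, inputs, N construct and TMP-seq were not used here. Reads were trimmed (cutadapt) and mapped to hg19 (Bowtie2 for ChIP-seq) by the authors, who used MACS2 to call ChIP-seq peaks over input and broad ATAC-seq peaks. Fold enrichment, as deposited, is the ratio of a peak's pileup to its local background, and the deposited −log10 q-value is the MACS2 significance. The versions of the aligner and peak caller, and whether duplicates were pooled, are not given in the sources used here. The study gives a range of depth over its ChIP-seq libraries, and the depth of each list is unknown, and weaker binding below the authors' threshold is not listed.

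Genes came from GENCODE release 44 lifted to GRCh37. A peak belonged to a region with at least 1 bp of overlap. Shares carry Clopper-Pearson intervals, rates Poisson intervals, and ratios of rates intervals from the binomial split of the counts. No test was run, since each condition had 1 list. Copies of summit windows were sought with BLAST in GRCh37. Members and lists were chosen with earlier results of these data known. Members were named by rule: the 8 with the most Satb1 peaks (ties by fold enrichment), the 3 with the most peaks in each other ChIP-seq list, the strongest in each, those with a Satb1 promoter peak, the 3 longest without a ChIP-seq peak and the one with the most peaks in each ATAC-seq list. Other names, the clusters, the length classes, the copies and the distance profile were chosen after the values were seen. The functions were tested on simulated data. Tools were Python 3.11.15, numpy 2.4.6, pandas 2.3.3, scipy 1.17.1, matplotlib 3.10.9, bedtools 2.31.1 and BLAST 2.17.0. The sequence of 1 promoter window is not reported here.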

Additional observations from a re-analysis of the deposited data

How the results depend on the processing

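Of 54 values recomputed under an alternative, 45 stayed inside the interval of the reported value. Against the regions of the other protein-coding genes in place of the whole rest of the chromosome, the ratio of peaks per Mb moved to 1.94 for ∆HD, 2.17 for N-C1, 0.316 for ATAC-seq of native cells and 0.289 for ATAC-seq of cells with Satb1. With ATAC-seq peaks of −log10 q of at least 5 alone, the ATAC-seq ratios moved to 0.517 and 0.526, and without the short-arm cluster beside the centromere, an alternative added after seeing the data, to 0.444 and 0.409. With CTAATAR on either strand in place of the full consensus, 65.5% of Satb1 summits held a match. The ICRF-193 ratio was 0.841 to 1.40 over its alternatives and so lay on both sides of 1, and the N-C1 interval reached below 1 with the fold minimum of 5. The cause of these moves was not tested. No paired analysis was possible because each condition had 1 list. The small number of ChIP-seq peaks limits the ChIP-seq ratios.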
